A study of Mus musculus with 6 samples.

Results

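Periostin (*Postn*) and 9 other genes of matricellular and related matrix proteins (*Tgfbi*, *Tnc*, *Fn1*, *Thbs1*, *Thbs2*, *Thbs3*, *Sparc*, *Spp1* and *Cthrc1*) were followed in EGFP+ cells sorted from mouse ventricles under pressure overload. The 10 genes were picked by symbol, and each was found once among the 28987 genes of the table. They were selected on earlier results of the same comparison, in which *Postn* stood out. The differences between the groups given here are therefore descriptions and not independent evidence. *Postn* was the member that differed most. Its mean level was near that of *Tgfbi* in control libraries and second only to *Sparc* in the libraries labelled Hsp47-deleted, although *Thbs1* was above it in 1 of those libraries. *Cthrc1* differed next most in the pooled comparison, whereas *Spp1* did against the control of the second sequencing run. *Fn1*, *Thbs2* and *Thbs3* were also higher without overlap. *Tgfbi*, *Tnc*, *Thbs1*, *Sparc* and *Spp1* overlapped between the groups.

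Matricellular proteins are secreted into the extracellular matrix, where they bind collagens, growth factors and cell surface receptors rather than serving mainly as structural fibers. Many are scarce in the resting adult heart and appear after injury, when fibroblasts become myofibroblasts. TGF-β is a known inducer of several of them, and periostin is widely used as a marker of the activated cardiac fibroblast.

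Libraries came from 3 control and 3 Hsp47-deleted samples. All were labelled CRE+ and GFP+. They came from mice that carry a tamoxifen-inducible MerCreMer cDNA in the *Postn* locus and a loxP-dependent *R26eGFP* reporter, and in the deleted group *Hsp47* is loxP-targeted as well. The study's methods give male mice of the C57BL/6 background. Per the labels, tamoxifen was injected at 100 mg/kg and fed in chow at 40 mg/kg, and transverse aortic constriction (TAC), a surgical narrowing that loads the left ventricle, was performed at 8 to 10 weeks of age. The study's methods give other tamoxifen doses. Cells were taken 4 weeks after TAC in every library, so that uninjured hearts do not enter the comparison. The Cre driver is the *Postn* locus itself, so the sort keeps cells that have used this promoter, and 1 value per gene does not separate the intact allele of *Postn* from the one with the insertion. By the run names in the labels, control replicates 3 and 4 were sequenced together (the first run), and control replicate 2 was sequenced with all 3 Hsp47-deleted replicates (the second run). The labels do not say that each library is a separate animal, so a p-value here measures only the spread between libraries.

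Where 6 values of a gene are given, those of the controls come first, in the order of replicates 3, 4, 2, and those of the Hsp47-deleted libraries follow, in the order 1, 2, 3. Only the first 2 controls are from the first run. Several features of the libraries bear on every value that follows. *Serpinh1*, which encodes HSP47, a collagen chaperone, read 6.28, 6.10 and 7.60 (log2) for the controls, then 6.87, 6.67 and 6.66. It was not lower in the pooled comparison (log2 fold change 0.07), and it was 0.87 lower than the control of the second run (difference -0.87). These are RNA values, and the study reports efficient deletion of the protein by Western blotting of sorted EGFP+ cells. Directions below refer to the libraries by their labels. Mitochondrially encoded genes took 23.5% to 29.4% of the summed values of control libraries, but 4.70% to 7.23% of Hsp47-deleted ones. Over the 15109 tested genes the log2 difference had a median of 0.35, which was -0.060 after each library was centred on its median. The labels name cardiac fibroblasts, and the 10 fibroblast markers, all detected, summed to 9579 to 15776 in controls and 17757 to 20539 in Hsp47-deleted libraries. The part of these differences in the members' values was not tested. In such bulk samples, fewer cells of a type and less RNA per cell cannot be told apart.

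The promoters of *Postn*, *Thbs2* and *Thbs3* are shown because these are the members with no overlap between the groups that have an entry in the RefSeq promoter table (GRCm38.p6). In all, 7 members have an entry, and *Fn1*, *Thbs1* and *Cthrc1* have none. Each line gives the 250 bases before a start site on the gene's own strand, 5′ to 3′, and capitals mark matches on either strand to 4 motifs. The SMAD box was searched as CAGAC. An AP-1 site was searched as TGAGTCA. The TEAD motif was searched as CATTCC and the TATA box as TATAAA. The window of *Postn* lies at chr3:54360857-54361106 on the plus strand, and that of *Thbs2* at chr17:14694263-14694512 on the minus strand. The window of *Thbs3* lies at chr3:89214930-89215179 on the plus strand.
Postn: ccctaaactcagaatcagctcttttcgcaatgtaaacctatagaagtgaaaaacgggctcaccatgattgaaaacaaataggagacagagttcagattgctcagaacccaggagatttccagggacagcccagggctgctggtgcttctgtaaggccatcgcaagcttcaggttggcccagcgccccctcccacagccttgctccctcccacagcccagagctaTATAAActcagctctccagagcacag
Thbs2: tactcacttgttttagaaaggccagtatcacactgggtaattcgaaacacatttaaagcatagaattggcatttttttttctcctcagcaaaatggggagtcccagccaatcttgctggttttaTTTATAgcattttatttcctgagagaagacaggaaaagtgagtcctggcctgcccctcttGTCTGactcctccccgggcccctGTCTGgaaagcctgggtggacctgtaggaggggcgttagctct
Thbs3: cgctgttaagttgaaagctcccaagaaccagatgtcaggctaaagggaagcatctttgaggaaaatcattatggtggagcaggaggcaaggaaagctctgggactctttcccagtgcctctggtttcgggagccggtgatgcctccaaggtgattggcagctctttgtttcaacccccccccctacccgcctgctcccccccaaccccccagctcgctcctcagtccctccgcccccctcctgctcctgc
The *Postn* window holds 1 match, to the TATA box, and it belongs to a start 2 bases from that of the GENCODE gene. A second RefSeq start of *Postn* lies farther upstream, and its window, which is not shown, holds 1 match to the SMAD box. The *Thbs2* window holds 2 matches to the SMAD box and 1 to the TATA box, and the *Thbs3* window holds none. Among the 32851 windows of this length in the table, 42.2% hold the SMAD box, 4.5% the AP-1 site, 12.6% the TEAD motif and 12.4% the TATA box on either strand. The *Postn* and *Thbs2* windows shown thus both hold the TATA box letters, but on opposite strands and at different places. The *Thbs3* window shares no motif with them. Capitals of different motifs overlap in no window shown.

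Periostin is a secreted FAS1-domain protein that binds collagen and fibronectin and takes part in collagen fibril assembly. Its gene lies on chromosome 3 from 54361109 to 54391037 on the plus strand (GRCm38, GENCODE). On the log2 scale it stood at 5.87, 5.86 and 6.12 in control libraries and at 10.22, 10.50 and 10.36 in Hsp47-deleted libraries. Every Hsp47-deleted library was far above every control, and the spread inside each group was small. With means of 5.95 ± 0.15 and 10.36 ± 0.14 (SD, n = 3 each), the log2 difference was 4.41 ± 0.28 (SE), or 21.3-fold in value + 1 (limma, adjusted p = 0.00337 by the Benjamini-Hochberg method, BH). It was 4.24, or 18.9-fold, when only the second-run control was used. In the authors' linear unit the values were 57.3, 56.9 and 68.5 against 1188, 1451 and 1317. Among the 28987 genes of a library, *Postn* moved from a rank between 1090 and 1567 in controls to one between 49 and 76 in the Hsp47-deleted libraries. Its 31-base words occur in no other gene of that annotation, so its value does not depend on how shared reads were assigned.

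*Tgfbi* encodes the TGF-β-induced protein, the FAS1-domain relative closest to periostin, which also binds collagens and integrins. Control libraries read 5.75, 5.53 and 6.89 (log2), and Hsp47-deleted libraries 6.86, 6.79 and 6.50. The control of the second run was the highest of the 6 libraries, and the 2 controls of the first run were the lowest. The means were 6.05 ± 0.73 and 6.71 ± 0.19 (SD, n = 3 each), which gave a log2 difference of 0.66 ± 0.40 (SE), and against the second-run control the difference was -0.17. The log2 ratio of *Postn* to *Tgfbi* was 0.12, 0.34 and -0.77 in controls but 3.37, 3.73 and 3.88 in Hsp47-deleted libraries. The pair stood at like levels in controls and far apart in Hsp47-deleted libraries, by 3.77 on average.

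**Figure D1:**
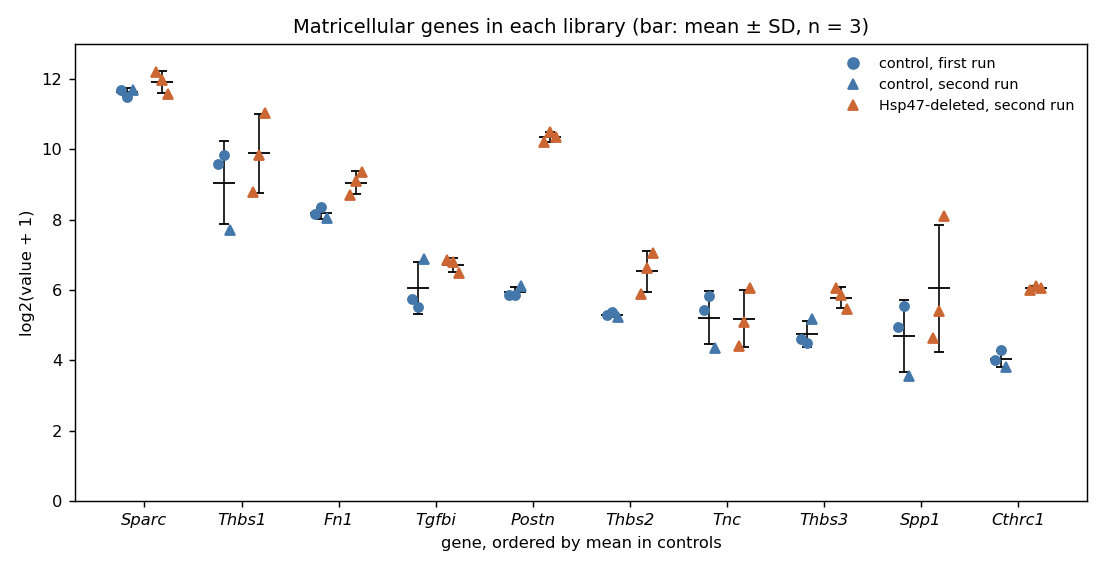
Log2(value + 1) of the 10 members in each of the 6 libraries, with genes ordered by their mean in controls. Points are single libraries, the colour gives the group, the marker shape the sequencing run, and the bars the mean ± SD (n = 3). *Postn* and *Cthrc1* show 2 tight groups, whereas *Tgfbi*, *Tnc*, *Thbs1*, *Sparc* and *Spp1* overlap.

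*Cthrc1* encodes a secreted glycoprotein with a short collagen-like stretch that is produced by activated fibroblasts after injury. The gene lies on chromosome 15 from 39076932 to 39087121. In the linear unit it read 15.0, 18.5 and 13.1 in controls, and 62.8, 67.7 and 65.7 in Hsp47-deleted libraries. The Hsp47-deleted libraries were nearly identical to one another and lay above all controls. The log2 means were 4.03 ± 0.23 and 6.05 ± 0.054 (SD, n = 3 each), which differed by 2.02 ± 0.27 (SE), or 4.05-fold (limma, BH-adjusted p = 0.0485). Relative to the second-run control it was 4.70-fold higher. The call rested close to the threshold, and with sequencing run as a covariate the adjusted p was 0.0681. Of the 6 omissions of a single library, only that of control replicate 2 kept the call, and the adjusted p ranged from 0.00582 to 0.285. The second-run control was the lowest of all 6 libraries.

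Thrombospondins are secreted multimeric glycoproteins that bind calcium, matrix and cell surface receptors. THBS1 is known for activating latent TGF-β and inhibiting angiogenesis, THBS2 for its part in collagen fibril organization, and THBS3 belongs to the pentameric subgroup. *Thbs2* had log2 values of 5.30, 5.38 and 5.23 in controls against 5.89, 6.63 and 7.05. The controls were almost equal and the Hsp47-deleted libraries all higher but spread, with a log2 difference of 1.23 ± 0.35 (SE) and a second-run difference of 1.30. *Thbs3* had log2 values of 4.59, 4.50 and 5.17 against 6.06, 5.84 and 5.45. The groups did not overlap, but the second-run control and Hsp47-deleted replicate 3 were close. The log2 difference was 1.03 ± 0.32 (SE), which became 0.62 against the second-run control. An overlapping gene on the other strand, *Mtx1*, holds 4.71% of the 31-base words of *Thbs3*, and use of strand in the quantification is not given in the sources used here. Exons of *Thbs1*, *Fn1* and *Tnc* are likewise overlapped by a gene on the other strand.

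*Thbs1* was the most abundant thrombospondin among the members and the most variable of the 3. It read 9.59, 9.85 and 7.70 (log2) in controls, then 8.80, 9.85 and 11.03. The second-run control was the lowest library, and the first-run controls lay inside the range of the Hsp47-deleted libraries. Pooled, the log2 difference was 0.84 ± 0.73 (SE), while the difference from the second-run control was 2.19. Omitting control replicate 2 gave 0.17, and omitting Hsp47-deleted replicate 3 gave 0.27. Between the 2 runs the controls alone differed by -2.03 (second minus first), which is larger than the pooled difference between the groups. The log2 ratio of *Thbs1* to *Thbs2* had a difference of -0.40 between the pooled groups, Hsp47-deleted minus control, and of 0.88 against the second-run control alone.

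*Fn1* encodes fibronectin, a large adhesive glycoprotein that integrins assemble into fibrils and on which collagen is laid down. Its log2 values were 8.15, 8.36 and 8.06 in controls, and 8.70, 9.10 and 9.35 in Hsp47-deleted libraries. All Hsp47-deleted libraries were above all controls, by 0.86 ± 0.30 (SE) on the log2 scale, and by 0.99 against the second-run control. Relative to *Col1a1*, which encodes a chain of type I collagen, a client of HSP47, the mean log2 ratio of *Fn1* differed by 0.19 between the groups, less than the spread within either, and by 0.61 against the second-run control. The log2 ratio of *Postn* to *Col1a1* was -2.52 ± 0.15 in controls and 1.24 ± 0.37 in Hsp47-deleted libraries (SD, n = 3 each), a difference of 3.76.

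*Tnc* encodes tenascin-C, a hexameric glycoprotein of injury borders that lowers cell adhesion to fibronectin. The controls stood at 5.44, 5.83 and 4.36 (log2) and the Hsp47-deleted libraries at 4.42, 5.09 and 6.05. The groups overlapped, and their means differed by -0.024 ± 0.53 (SE). Against the second-run control, the lowest library, the difference was 0.82.

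*Sparc* encodes osteonectin, a collagen-binding protein involved in procollagen handling, and was the most abundant member in every library. Log2 values were 11.68, 11.50 and 11.70 for controls against 12.19, 11.99 and 11.59. Hsp47-deleted replicate 3 lay inside the control range, and the means differed by 0.30 ± 0.34 (SE). Its direction changed with the scaling, which was seen for no other member under the 3 scalings tried. With libraries centred on their medians the difference was -0.12, with values rescaled without the mitochondrially encoded genes it was -0.19, and with quantile normalization it was 0.36.

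*Spp1* encodes osteopontin, an integrin-binding phosphoprotein that both macrophages and activated fibroblasts produce. It had log2 values of 4.96, 5.54 and 3.56 in controls and 4.63, 5.40 and 8.09 in Hsp47-deleted libraries. One library, Hsp47-deleted replicate 3, was far above the other 5, with 272 in the linear unit against 10.8 to 45.4. The log2 difference was 1.36 ± 0.90 (SE), and without that library 0.33. The 12 leukocyte and macrophage markers in the table summed to 40.3, 83.0 and 261 in controls and 135, 209 and 199 in Hsp47-deleted libraries. In Hsp47-deleted replicate 3, 11 of them were above 0, as in control replicate 2 and the other Hsp47-deleted libraries. Hsp47-deleted replicate 3 had *S100a8* at 91.5, *Cd68* at 51.9 and *Lyz2* at 30.1. Control replicate 2, where *Spp1* was lowest, had *S100a8* at 165 and *Lyz2* at 56.7, and control replicate 4 had *Cd68* at 63.6. Other markers went the other way in control replicate 2, with *Cd68* at 19.2 and *Itgam* at 3.13, each the lowest of the 6 libraries. *Ptprc* was listed at 0 in all 6 libraries. The part of such cells in the *Spp1* values was not tested. A predicted gene with overlapping exons, *Gm42793*, holds 14.3% of the 31-base words of *Spp1*, so its value is less certain than those of the other members.

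**Figure D2:**
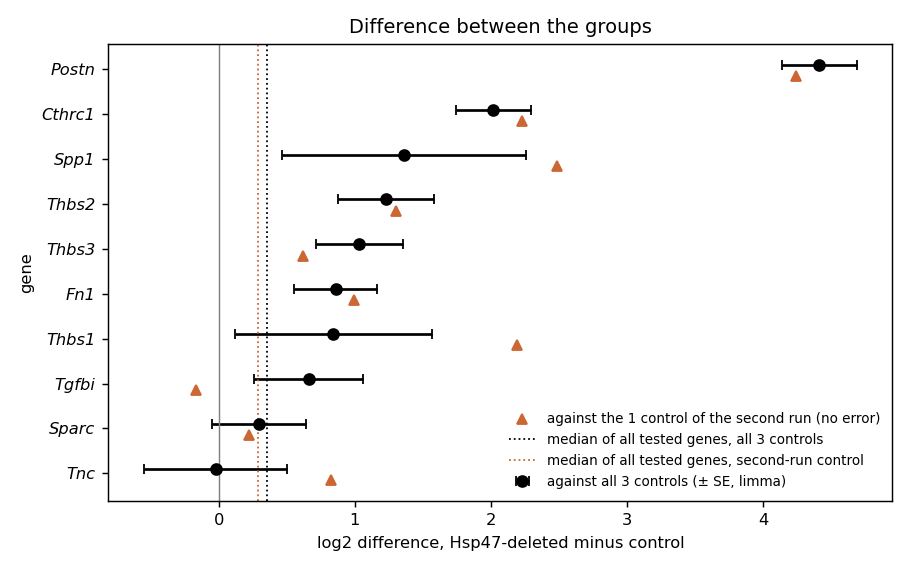
Log2 difference of each member against all 3 controls (circles, with the limma standard error) and against the second-run control (triangles, with no error). Dotted lines are the medians of all tested genes. *Postn* at 4.41 and *Cthrc1* at 2.02 stay apart from 0 in both, and *Tgfbi* changes from 0.66 to -0.17.

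All 10 members passed the filter on low values (a mean linear value of 1 or more). At a BH-adjusted limma p under 0.05, 2 members, *Postn* and *Cthrc1*, were called higher, beside 0.232% of the 15109 tested genes. With sequencing run as a covariate 1 member, *Postn*, was called higher, beside 0.119% of genes. The balance of all calls differed between these fits, with 35 higher and 2 lower without the covariate, and 18 higher and 32 lower with it. The Hsp47-deleted libraries lay wholly above the controls for 5 members, beside 18.3% of genes. They lay wholly above the second-run control for 8, beside 46.7%, and wholly below it for *Tgfbi*, beside 11.7%. These shares stand next to counts that the choice of members used, and nothing is read from them. The median log2 fold change of the members was 0.95 against 0.35 over all tested genes, and 0.53 against -0.060 after centring.

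In the order of levels, *Postn* moved from the fifth place to the second and *Cthrc1* from the last to the seventh. Comparing levels between genes assumes that the linear values are per transcript length, which the file does not state. In controls the order of mean log2 values was *Sparc*, *Thbs1*, *Fn1*, *Tgfbi*, *Postn*, *Thbs2*, *Tnc*, *Thbs3*, *Spp1* and *Cthrc1*. The libraries of neighbouring genes did not overlap only at *Sparc* over *Thbs1*, *Fn1* over *Tgfbi*, and *Postn* over *Thbs2*. In Hsp47-deleted libraries the order was *Sparc*, *Postn*, *Thbs1*, *Fn1*, *Tgfbi*, *Thbs2*, *Cthrc1*, *Spp1*, *Thbs3* and *Tnc*, and neighbours were separate only at *Sparc* over *Postn* and *Fn1* over *Tgfbi*.

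The linear values of the 10 members summed to 4589, 4422 and 4099 in controls and to 7077, 7378 and 7797 in Hsp47-deleted libraries. As a share of all values in a library, they took 0.665%, 0.582% and 0.507% against 0.884%, 0.912% and 0.911%. *Postn* made up from 1.25% to 1.67% of this sum in controls and from 16.8% to 19.7% in Hsp47-deleted libraries. *Sparc* made up from 65.3% to 81.2% and from 39.4% to 66.2%, and *Thbs1* from 5.04% to 20.9% and from 6.26% to 26.8%.

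**Figure D3:**
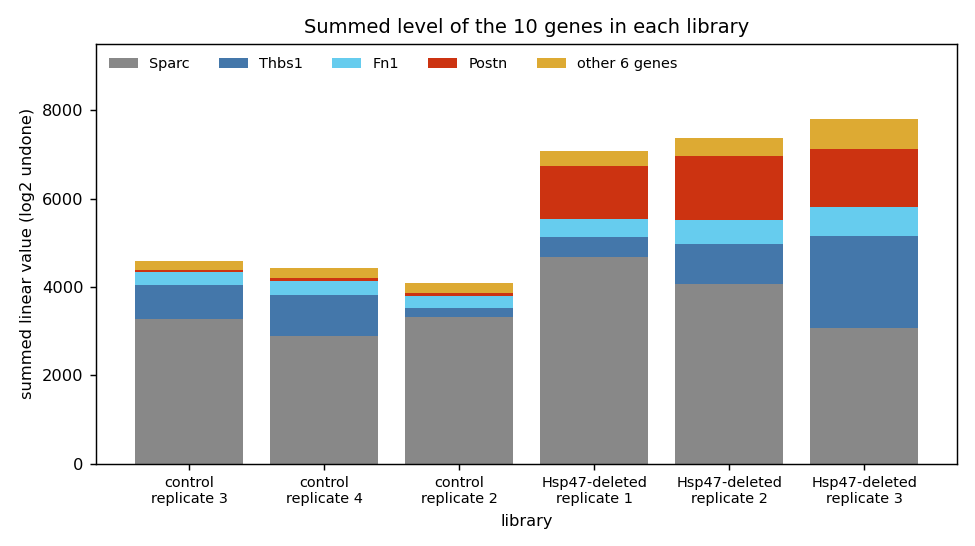
Summed linear value of the 10 members in each library, divided into *Sparc*, *Thbs1*, *Fn1*, *Postn* and the remaining members. Controls reach 4099 to 4589 and Hsp47-deleted libraries 7077 to 7797, and the *Postn* part is visible mainly in the latter.

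Inside the groups, most members followed either of 2 opposite orders of libraries. After their values were seen, these orders were counted over all tested genes. In *Tnc*, *Fn1*, *Thbs1*, *Thbs2* and *Spp1*, Hsp47-deleted replicate 3 was the highest and replicate 1 the lowest of its group, and the second-run control was the lowest control. This order was found in 15.1% of genes. In *Tgfbi*, *Thbs3* and *Sparc* the order was the reverse, as in 16.3% of genes. From the lowest to the highest Hsp47-deleted library, *Spp1* spanned 11.0-fold, *Thbs1* 4.70-fold and *Tnc* 3.09-fold in value + 1, whereas *Postn* spanned 1.22-fold and *Cthrc1* 1.08-fold. What these libraries differ in was not tested.

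**Figure D4:**
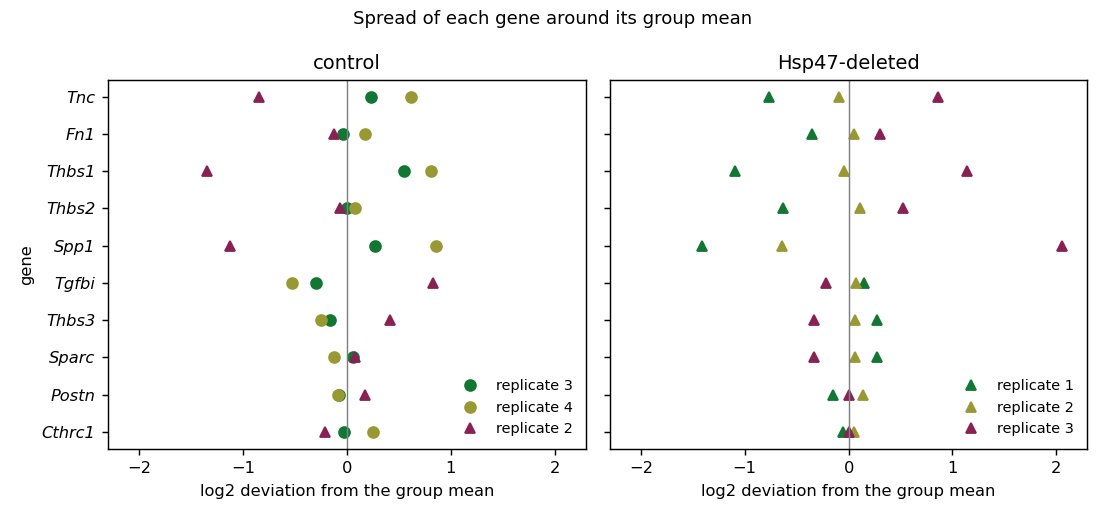
Deviation of each library from its own group mean for every member, in log2 units, controls in one panel and Hsp47-deleted libraries in the other, with a colour per replicate. *Spp1* and *Thbs1* fan out in both groups, and *Postn* and *Cthrc1* stay within 0.17 and 0.25 of their group means.

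Other members of the same families, receptors, matrix partners and upstream genes were described from 10 lists. The lists had 86 tested genes in 87 entries of the table, since *Cd47* is listed in 2. Of these entries, 1 was called higher and 0 lower by limma at a BH-adjusted p under 0.05, and at an unadjusted p under 0.05 there were 25 higher, beside 14.5% of all tested genes, and 0 lower. No overlap in the higher direction was seen for 28, or 32.2%, beside the 18.3% of all genes. The lists were written with these results known, so nothing is read from these shares. The called gene was *Comp*, the pentameric thrombospondin of cartilage and tendon, with log2 values of 4.95, 4.88 and 6.67 in controls, then 8.97, 9.43 and 9.19. Its log2 difference was 3.70 ± 0.50 (SE; limma, BH-adjusted p = 0.0485), and it was 2.53 above the second-run control. *Thbs4*, the thrombospondin best known in the loaded heart, had a log2 fold change of 1.23 and did not pass.

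None of the other 9 lists had a called gene by limma. The 2 genes of each with the smallest p are named, and they are not the ones with the largest difference in every list. Among CCN proteins, secreted regulators of adhesion, *Ctgf* had a log2 fold change of 1.40 and *Wisp2* of 1.87, or 1.25 and 0.67 against the second-run control. Among fibulins, which bind elastic fibers, *Fbln5* had 0.96 and *Efemp2* 1.01, or 0.92 and 0.26 against that control. In the SPARC family *Spock2* had 1.47 and *Smoc1* 1.18, and against the second-run control 0.33 and 0.23. The other FAS1-domain genes, *Stab1* and *Stab2*, which encode scavenger receptors, had 0.73 and 0.0004, or 1.14 and 1.05. The tenascins *Tnxb* and *Tnn* had 0.81 and 0.017, or -0.17 and 0.26, so that *Tnxb* changed sign. None of the 4 SIBLING genes related to *Spp1* (*Ibsp*, *Dmp1*, *Mepe* and *Dspp*) reached the filter.

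Of the 20 tested receptors of the members, 15 had a positive difference and none passed. Over all tested genes only 24.2% lay below the log2 difference of *Tnc*, -0.024. Most genes were thus positive too, and nothing is read from this count. The syndecan *Sdc4* and the calcium-binding protein *Calr*, those with the smallest p, had log2 fold changes of 0.92 and 0.86, or 0.97 and 0.59 against the second-run control. Larger differences with a larger p were those of the integrin subunits *Itgb6* and *Itgb5*, 2.35 and 1.07, which were named after their values were seen. Against the second-run control these 2 had 2.31 and 0.20. *Itgb6* read 0.94, 1.47 and 1.26 (log2) in controls, then 6.31, 3.52 and 0.88, so Hsp47-deleted replicate 3 was below every control. Among 17 collagens and matrix-processing genes, *Col12a1*, a collagen of fibril surfaces, had 1.60 and the protease *Mmp2* 1.07, or 1.83 and 0.97 against that control. Among 24 upstream signals and factors, the growth factor *Tgfb1* had 1.37 and the co-activator *Yap1* 1.05, or 0.82 and 0.86. The median log2 fold changes of these 3 lists were 0.30, 0.67 and 0.48, beside 0.35 over all tested genes.

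The 5 genes whose log2 values over the 6 libraries followed *Postn* most closely, among 6468 genes with a mean of at least 10, were *Colec12*, *Col22a1*, *Pard3b*, *Ctgf* and *Ang*. Their Pearson r ranged from 0.993 to 0.997. *Col22a1* encodes a collagen of tissue junctions, *Colec12* a scavenger receptor, and *Ctgf* a CCN protein. The 6 points fall into 2 clusters by group, so these correlations describe the group difference and carry no p.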

How the data were processed

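RNA-seq was performed on EGFP+ cells from 6 libraries, 3 per group. RNA was amplified with the Ovation system and libraries were made by tagmentation. The submitters' processing notes name kallisto and mm10, and give no roles. The authors deposited log2(value + 1) for 28987 genes without naming the linear unit. The values are not counts, the depth is unknown, and no interval that needs depth is given. The table also holds the authors' group means, fold changes, p-values and adjusted p-values, which were not used.

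The log2 values were used as deposited. Groups were compared at the 15109 genes with a mean linear value of at least 1 by limma 3.58.1 (R 4.3.3), using a moderated fit with a trend of variance on mean and no covariate. Benjamini-Hochberg (BH) adjustment ran over all of them at a threshold of 0.05. Differences are of log2(value + 1), and those of low genes are understated by the pseudocount of 1. The script was tested on simulated data. Figures were drawn with matplotlib 3.10.9 in Python 3.11.15.

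The members, lists and tests were chosen with earlier results of these data known. The text names every member, *Serpinh1*, *Col1a1*, the 2 genes of each list with the smallest p, and the 5 genes most correlated with *Postn*. Other names were chosen after their values were seen. Positions and shared 31-base words come from GENCODE M21 (GRCm38), and promoters from RefSeq (GRCm38.p6). Alternatives were sequencing run as a covariate, the second run alone, the replicate number as a block, other filters and pseudocounts, other scalings, no trend, and each library left out. The first run holds only controls. With run as a covariate the difference therefore equals that against the 1 control of the second run, and the 2 are not separate checks. The same alternatives for ratios were added after the data were seen.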

Additional observations from a re-analysis of the deposited data

How the results depend on the processing

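*Postn* was called in 15 of 16 alternative limma comparisons and lost only with the replicate block, with a log2 fold change from 3.93 to 4.50, and *Cthrc1* was called in 4 of 16. The 37 genes called became 16 with a pseudocount of 0.1, 18 with centring on the median, and 17 both with quantile normalization and with rescaling without mitochondrially encoded genes. Leaving out 1 library gave from 8 to 2768 genes and from 1 to 4 members. The 2768 and the 4 came without control replicate 2, when run and label coincide, and *Tgfbi* (adjusted p = 0.0322) and *Thbs3* (adjusted p = 0.0288) were then called as well. Of the members, 1 was called with run as a covariate, with the pseudocount of 0.1, with centring, quantile normalization or rescaling, and without the trend. Their median log2 fold change of 0.95 became 0.53 with centring, 0.51 with quantile normalization and 0.47 with rescaling. The summed member value, 4370 in controls and 7417 in Hsp47-deleted libraries, became 5293 and 6362 with rescaling. The causes of these changes were not tested.

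The groups share replicate numbers 2 and 3. Same-numbered libraries deviated with r = 0.16 and 0.23. With only 2 pairs, and with replicate 3 in a different run in each group, this cannot tell whether same-numbered libraries are paired. With the replicate block limma called 0 genes and 0 members (1545 and 6 at an unadjusted p under 0.05), the median member difference was 1.35 and *Postn* had an adjusted p of 0.187.

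In the second run alone, the *Postn* to *Tgfbi* ratio differed by 4.43 and *Thbs1* to *Thbs2* by 0.88, and *Fn1* to *Col1a1* by 0.61. With 1 library left out *Thbs1* to *Thbs2* ranged from -1.05 to -0.040, the lowest without control replicate 2. *Fn1* to *Col1a1* ranged from -0.17 to 0.38 with 1 library left out, the lowest without Hsp47-deleted replicate 3, and was -0.018 if control replicate 2 was left out. *Tgfbi* was -0.17 with run as a covariate and in the second run alone, which give the same difference by construction. *Tnc* was 0.82 in both, 0.67 with the block, and from -0.45 to 0.36 with 1 library left out (above 0 at 0.090 and 0.29 when control replicate 3 or 4 was left out, and at 0.36 and 0.024 for Hsp47-deleted replicate 1 or 2). *Sparc* was -0.12 with centring and -0.19 with rescaling. *Comp* was called in 5 of 16, with an adjusted p from 0.000437 to 0.261 with 1 library left out. With 3 libraries a group and unknown depth, genes that spread as *Thbs1* and *Spp1* do could be called only at larger differences.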

Other observations

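Marker genes of fibroblasts and of 5 cell types that a sort could carry along were compared between the sequencing runs. All but the mural markers differed. The first run holds only controls and the second holds all Hsp47-deleted libraries, so run and group are not separated here. Over all tested genes, the 4 second-run libraries lay wholly above the 2 first-run libraries at 35.0%. They did so for 8 of 10 fibroblast, 8 of 10 endothelial, 8 of 10 leukocyte, 5 of 5 platelet, 6 of 9 cardiomyocyte and 2 of 8 mural markers tested, and wholly below for 1 leukocyte marker, *Itgam*. The summed values did not overlap between the runs for fibroblast markers (9579 to 10171 in the first and 15776 to 20539 in the second), endothelial markers (105 to 240 and 286 to 639), leukocyte markers (40.3 to 83.0 and 135 to 261), platelet markers (6.29 to 9.22 and 27.6 to 37.9) and cardiomyocyte markers (59.8 to 112 and 184 to 303). They overlapped for mural markers (179 to 308 and 166 to 273). Between the controls alone, second minus first run, the members differed by 0.26 (*Postn*), -0.32 (*Cthrc1*), 1.25 (*Tgfbi*), 0.62 (*Thbs3*), 0.11 (*Sparc*), -0.11 (*Thbs2*), -0.20 (*Fn1*), -1.27 (*Tnc*), -1.69 (*Spp1*) and -2.03 (*Thbs1*) on the log2 scale. The part of such cells or of the run in the members' values was not tested.

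By the rule on the smallest p, the marker genes named are *Tcf21* and *Mfap5* (log2 fold change 2.09 and 0.83) for fibroblasts, *Cldn5* and *Pecam1* (2.13 and 1.15) for endothelium, *Cd14* and *Cd79a* (1.23 and 1.32) for leukocytes, *Gp1bb* and *Pf4* (0.99 and 1.66) for platelets, *Myh6* and *Tnnt2* (2.01 and 1.58) for cardiomyocytes, and *Pdgfrb* and *Kcnj8* (1.49 and -0.88) for mural cells. None was called by limma at a BH-adjusted p under 0.05. Against the second-run control *Tcf21* differed by 1.02, *Cldn5* by 0.28, *Pf4* by -0.80 and *Myh6* by 0.55. The median differences from that control were 0.36 for fibroblast, -0.43 for endothelial and 0.067 for leukocyte markers. For platelet, cardiomyocyte and mural markers they were -0.37, -0.53 and -0.59. *Cldn5* and *Myh6* were thus opposite in sign to the medians of their lists. So were *Pecam1* at 0.19, *Gp1bb* at 0.47, *Tnnt2* at 0.085 and *Pdgfrb* at 0.46 against that control. The other markers named had the sign of their list's median.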
